A study of Mus musculus with 12 samples.

Results

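The 10 genes described here encode 9 gut hormone and neuropeptide precursors and the enzyme that commits tryptophan to serotonin. They are *Pyy*, *Ppy*, *Gcg*, *Cck*, *Sct*, *Nts*, *Insl5*, *Sst*, *Tac1* and *Tph1*, taken by symbol from a table of 54532 genes, and all 10 were among the 12740 genes tested. The members were chosen by their FPKM in these same libraries, in all 4 groups, so every difference of a member between groups below is a description, printed without a p-value. Counts of members past the threshold used for all genes are descriptions too, and nothing is read from them. Poly-A mRNA was sequenced from mouse colonoids, which are epithelial organoids grown from colonic crypts. The 12 libraries form 4 groups of 3, which are control (*Hmox1* fl/fl, floxed alleles without Cre) and KO (*Hmox1* deleted in intestinal epithelial cells by Cre under the villin promoter, *Vil1*) colonoids, each with vehicle or with 200 µM hemin for 24 hours. Donor mice were 8 to 12 weeks old, and all colonoids were grown in L-WRN conditioned medium, which supplies Wnt3a, R-spondin and noggin. *Vil1*-Cre is active along the intestinal epithelium, so the deletion is not particular to hormone cells. The genotype label of KO hemin replicate 3 names the floxed alleles and the Cre, where the other KO libraries are labelled KO. No label gives the number of mice behind a group, so the spread between libraries may be technical.

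Enteroendocrine cells are scattered hormone-secreting cells of the gut epithelium. They descend from crypt stem cells through a progenitor that transiently expresses the transcription factor *Neurog3*, and each mature cell makes a limited set of peptides, which are cut from precursors and stored with granins in dense-core granules. In the colon, L cells make peptide YY, the glucagon-like peptides from *Gcg* and insulin-like peptide 5, whereas enterochromaffin cells make serotonin and D cells make somatostatin. Peptide YY and insulin-like peptide 5 are known to be more abundant towards the distal end of the large intestine, whereas neurotensin and cholecystokinin are better known from the small intestine.

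Each gene was measured as FPKM, fragments per kilobase of gene and per unit of library size, which allows levels of different genes to be compared per length. Between 11648801 and 25101868 fragments fell on genes in each library. *Gm23935*, annotated as a miRNA gene, took 16.8% of the FPKM sum of control vehicle replicate 1, 29.0% of that of control hemin replicate 1 and 21.0% of that of KO hemin replicate 2, and under 3% of that of the others. *Hmox1*, the deleted gene, was lower in the vehicle colonoids labelled KO (2.52 ± 0.55 FPKM, SD, n = 3) than in controls (7.45 ± 0.54), and under hemin it was higher in those labelled KO (1314 ± 68.1) than in controls (456 ± 64.6). The vehicle values go in the direction of the label and the hemin values do not. FPKM of a whole gene does not show which exons were read, so it cannot tell whether the transcript under hemin was intact. The paper also assessed *Hmox1* by RT-qPCR in sorted colonic epithelial cells of both genotypes. The genotype is taken from the labels here, so these groups are called labelled KO throughout. The epithelial marker *Epcam* was between 758 and 1595 FPKM in the 12 libraries.

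*Pyy* and *Ppy* are neighbours on the minus strand of chromosome 11, at chr11:102106676-102107832 and chr11:102099930-102101319 of GRCm38 (mm10), and 5356 bases lie between them. Both are protein coding, have 4 exons in GENCODE M21 and overlap no other annotated gene. *Insl5* lies at chr4:103017872-103026842 with 2 exons, *Gcg* at chr2:62474530-62483650 with 6 exons and *Cck* at chr9:121489824-121495694 with 3 exons, all on the minus strand. The promoter windows of these 5 genes are shown because the first 3 had the largest differences between genotypes and the last 2 the largest decreases with hemin on the log2(FPKM + 1) scale. Each window is the RefSeq sequence on GRCm38.p6 from 250 bases before to 50 bases after a start site, on the strand of the gene. Where RefSeq gives several start sites the one nearest the annotated 5′ end was used. Capitals mark matches on either strand to CAGATG (an E-box bound by basic helix-loop-helix factors such as NEUROD1), CCAATAAA (a HOXB13 motif), TTTATNG (a CDX2 motif), TGACGTCA (the cAMP response element) or TATAAA (the TATA box).
Pyy, chr11:102107783-102108082, minus strand: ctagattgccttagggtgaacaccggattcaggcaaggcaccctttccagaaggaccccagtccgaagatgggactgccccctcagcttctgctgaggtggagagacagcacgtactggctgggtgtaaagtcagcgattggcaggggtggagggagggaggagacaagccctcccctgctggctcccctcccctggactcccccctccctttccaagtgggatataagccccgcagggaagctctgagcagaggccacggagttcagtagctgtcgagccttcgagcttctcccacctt
Ppy, chr11:102101270-102101569, minus strand: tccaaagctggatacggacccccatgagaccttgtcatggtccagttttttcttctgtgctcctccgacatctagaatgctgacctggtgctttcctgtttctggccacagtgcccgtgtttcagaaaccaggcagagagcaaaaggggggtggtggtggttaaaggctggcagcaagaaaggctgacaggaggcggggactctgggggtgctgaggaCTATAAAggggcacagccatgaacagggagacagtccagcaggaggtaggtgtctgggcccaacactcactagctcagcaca
Insl5, chr4:103026679-103026978, minus strand: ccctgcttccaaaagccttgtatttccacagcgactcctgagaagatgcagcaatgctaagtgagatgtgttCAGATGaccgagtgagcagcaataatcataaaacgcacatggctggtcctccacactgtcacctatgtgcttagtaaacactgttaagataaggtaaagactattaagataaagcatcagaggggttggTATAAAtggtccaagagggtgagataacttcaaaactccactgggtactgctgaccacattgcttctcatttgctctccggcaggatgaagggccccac
Gcg, chr2:62483604-62483903, minus strand: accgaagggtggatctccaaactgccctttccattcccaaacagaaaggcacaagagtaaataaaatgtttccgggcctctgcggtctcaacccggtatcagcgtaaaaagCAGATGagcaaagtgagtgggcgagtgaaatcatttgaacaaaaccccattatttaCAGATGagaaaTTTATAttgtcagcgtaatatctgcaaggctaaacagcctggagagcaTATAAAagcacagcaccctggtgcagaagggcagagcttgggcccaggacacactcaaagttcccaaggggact
Cck, chr9:121495645-121495944, minus strand: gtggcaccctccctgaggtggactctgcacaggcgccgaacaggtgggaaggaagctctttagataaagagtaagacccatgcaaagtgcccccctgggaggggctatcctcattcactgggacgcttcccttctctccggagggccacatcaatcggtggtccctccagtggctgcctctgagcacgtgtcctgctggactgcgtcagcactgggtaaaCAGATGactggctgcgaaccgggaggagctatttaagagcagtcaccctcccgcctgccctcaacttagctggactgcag

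CAGATG was found in 5 of the 10 members' windows and in 17.2% of all 32851 windows. The *Gcg* window held it at 139 and at 83 bases before the start site, and the *Cck* window at 30 bases before it. TATAAA was found in 4 of 10 windows against 13.6% of all. TTTATNG was found in 2 of 10 windows against 10.9%, and both matches, in *Ppy* and *Sct*, overlapped TATAAA. TGACGTCA was found in the *Sst* window alone among the 10, at 48 bases before the start site, and in 1.79% of all windows. CCAATAAA was found in none of the 10 and in 1.12% of all. The *Pyy* window held none of the 5 motifs, which says only that these letters are not in it. A match of letters is a description and not a bound site.

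The plot of levels by library shows the main pattern, in which 3 hormone genes were far higher in the colonoids labelled KO. *Pyy* encodes peptide YY, which slows gut transit and reduces appetite. It was at 7.88, 6.49 and 7.15 FPKM in the control vehicle libraries and at 396, 417 and 396 in the vehicle libraries labelled KO. Under hemin it was at 4.31, 3.22 and 2.31 FPKM in controls and at 379, 295 and 347 in those labelled KO. The lowest library labelled KO was thus far above the highest control library in both conditions. The ratio of fragments, scaled for depth, was 56.3 with vehicle (95% counting interval 49.2 to 64.7) and 102 with hemin (80.7 to 130.1). These intervals cover counting error only, and fragments counted without molecular identifiers are not independent molecules. On the scale of the test, log2(FPKM + 1), the difference was 5.63 ± 0.15 (standard error) with vehicle and 6.34 ± 0.15 with hemin.

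**Figure D1:**
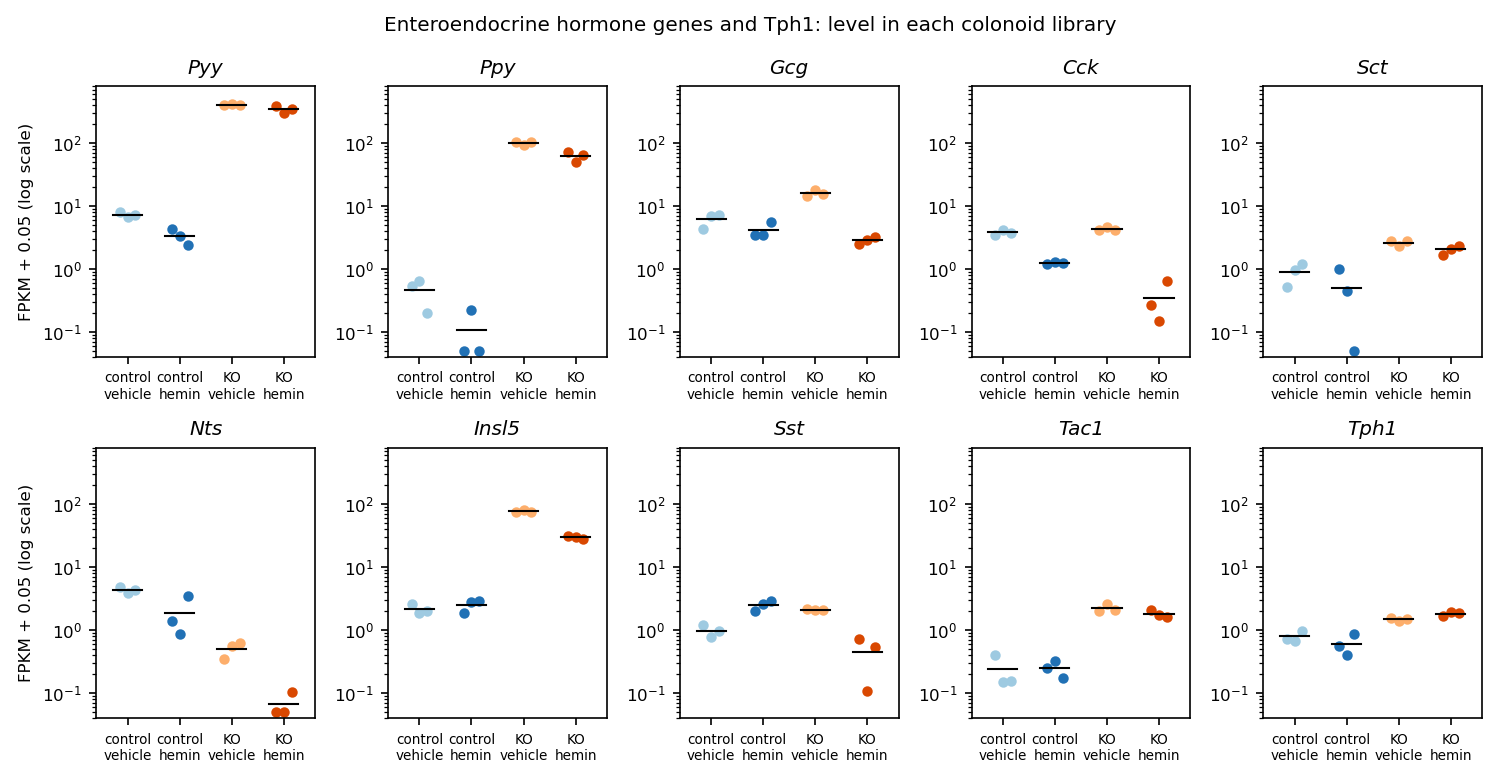
FPKM plus 0.05 on a log axis for each of the 10 genes, with 1 point per library, 3 libraries per group and a line at the mean. *Pyy*, *Ppy* and *Insl5* sit far higher in the 6 libraries labelled KO than in the 6 control libraries, and *Nts* sits lower.

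*Ppy* encodes pancreatic polypeptide, a peptide of the same family as peptide YY. It was close to the detection limit in controls, with 4, 5 and 1 fragments in the vehicle libraries and 0, 1 and 0 in the hemin libraries. A count of 0 there allowed up to 0.526 FPKM, the value of 3 fragments. In the colonoids labelled KO it was at 102, 92.2 and 104 FPKM with vehicle and at 71.4, 50.2 and 64.1 with hemin. The genotypes did not overlap in either condition. The ratio of fragments was 235 with vehicle (128 to 491), and under hemin it was 1045 (187 to 41311), a ratio that rests on 1 fragment in controls. Since *Pyy* and *Ppy* share a locus, their annotated neighbours within 50000 bases were read too. *Gm11585* and *Tmem101*, the 2 other genes there that could be tested, differed between genotypes by 0.28 and 0.26 with vehicle (adjusted p = 0.511 and 0.227, limma with Benjamini-Hochberg adjustment) and by -0.18 and -0.25 with hemin (adjusted p = 0.670 and 0.241).

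*Insl5* encodes insulin-like peptide 5, a hormone of colonic L cells. It was at 2.60, 1.86 and 2.01 FPKM in the control vehicle libraries and at 75.1, 80.4 and 75.7 in the vehicle libraries labelled KO. Under hemin it was at 1.82, 2.80 and 2.84 FPKM in controls and at 31.9, 30.5 and 27.6 in those labelled KO. The genotypes did not overlap, and within the colonoids labelled KO each hemin library was below each vehicle library. The ratio between genotypes was 35.7 with vehicle (28.3 to 45.6) and 12.1 with hemin (9.37 to 15.8). Hemin went with a 2.56-fold lower level in the colonoids labelled KO (2.39 to 2.75), whereas the control groups overlapped.

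*Gcg* encodes proglucagon, the precursor of GLP-1 and GLP-2 in L cells, and it did not share the pattern of the other L cell peptides. It was at 4.26, 6.93 and 7.06 FPKM in control vehicle libraries, at 14.5, 17.6 and 15.1 in vehicle libraries labelled KO, at 3.40, 3.40 and 5.39 in control hemin libraries and at 2.42, 2.79 and 3.17 in hemin libraries labelled KO. It was therefore higher in the colonoids labelled KO with vehicle, by 2.61-fold (2.33 to 2.92), and 1.46-fold lower in them with hemin (1.20 to 1.77). Hemin went with a 5.64-fold lower level in the colonoids labelled KO (4.88 to 6.55), and in controls the vehicle and hemin libraries overlapped.

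*Cck* encodes cholecystokinin, which stimulates gallbladder contraction and pancreatic enzyme secretion. It was at 3.39, 4.13 and 3.68 FPKM in control vehicle libraries and at 4.08, 4.48 and 4.14 in vehicle libraries labelled KO, and these groups overlapped. With hemin it was at 1.14, 1.23 and 1.18 in controls and at 0.213, 0.0977 and 0.587 in those labelled KO. Each hemin library was below each vehicle library in both genotypes, by 3.16-fold in controls (2.34 to 4.33) and 16.1-fold in the colonoids labelled KO (9.97 to 27.5). The last value rests on 18 fragments over the 3 hemin libraries, with 4, 3 and 11 in replicates 1, 2 and 3, so it depends mostly on replicate 3.

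*Nts*, the neurotensin precursor gene, was the single member lower in the colonoids labelled KO in both conditions. It was at 4.76, 3.80 and 4.26 FPKM in control vehicle libraries and at 0.294, 0.510 and 0.571 in vehicle libraries labelled KO. With hemin it was at 1.33, 0.813 and 3.43 in controls, and the libraries labelled KO held 0, 0 and 1 fragment. A count of 0 allowed up to 0.167 FPKM. The genotypes did not overlap, and the level in the colonoids labelled KO was 9.27-fold lower with vehicle (6.30 to 14.1) and 121-fold lower with hemin (21.2 to 4849).

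*Sst* encodes somatostatin, the inhibitory peptide of D cells, and its difference between hemin and vehicle had opposite signs in the genotypes. In controls it was at 1.18, 0.730 and 0.908 FPKM with vehicle and at 1.95, 2.58 and 2.85 with hemin. In the colonoids labelled KO it was at 2.12, 2.09 and 2.06 with vehicle and at 0.674, 0.0589 and 0.483 with hemin. Vehicle and hemin libraries did not overlap in either genotype. The level was 2.63-fold higher with hemin in controls (1.69 to 4.16) and 6.06-fold lower with hemin in the colonoids labelled KO (3.34 to 11.9). The numbers of fragments were small, between 1 and 26 in each library.

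*Sct*, *Tac1* and *Tph1* were low throughout. *Sct*, the secretin precursor gene, was at 0.470, 0.907 and 1.13 FPKM in control vehicle libraries and at 2.75, 2.24 and 2.67 in vehicle libraries labelled KO. With hemin it was at 0.951, 0.393 and 0 in controls (0 allows up to 0.398 FPKM) and at 1.61, 2.04 and 2.27 in those labelled KO. The genotypes did not overlap, while vehicle and hemin overlapped in both genotypes. *Tac1* encodes the precursor of substance P, which some enterochromaffin cells and enteric neurons make. It ranged from 0.103 to 0.357 FPKM in the 6 control libraries and from 1.56 to 2.55 in the 6 libraries labelled KO, again without overlap, and the ratio between genotypes was 11.4 with vehicle (7.92 to 17.1) and 8.74 with hemin (5.77 to 13.8).

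*Tph1* encodes tryptophan hydroxylase 1, the rate-limiting enzyme of serotonin synthesis in enterochromaffin cells. It was at 0.688, 0.626 and 0.931 FPKM in control vehicle libraries, at 1.51, 1.38 and 1.44 in vehicle libraries labelled KO, at 0.511, 0.356 and 0.818 in control hemin libraries and at 1.64, 1.92 and 1.81 in hemin libraries labelled KO. The genotypes did not overlap in either condition. The ratio between genotypes was 1.96 with vehicle (1.66 to 2.31) and 3.23 with hemin (2.65 to 3.96).

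A gene was called where its adjusted p was under 0.05 and its log2(FPKM + 1) differed by more than 1. Because this scale compresses low values, the fold ratios above are larger than the differences on it. Of the 10 members with vehicle, 5 passed this threshold above controls and 1 below them in the colonoids labelled KO, where 6.8% of all genes tested were called, 3.53% higher and 3.27% lower. With hemin, 5 were called higher and 2 lower, against 6.01% of all genes called, 3.1% higher and 2.91% lower. The genotypes did not overlap for 9 of 10 members with vehicle and for all 10 with hemin, against 57.5% and 40.9% of all genes. The single overlap was in *Cck* with vehicle. Since the members were listed with these levels known, nothing is read from the counts. *Ppy*, *Tac1* and *Tph1* reached 1 FPKM only in libraries labelled KO and *Nts* only in controls, so these 4 passed the filter through the group where they were high.

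**Figure D2:**
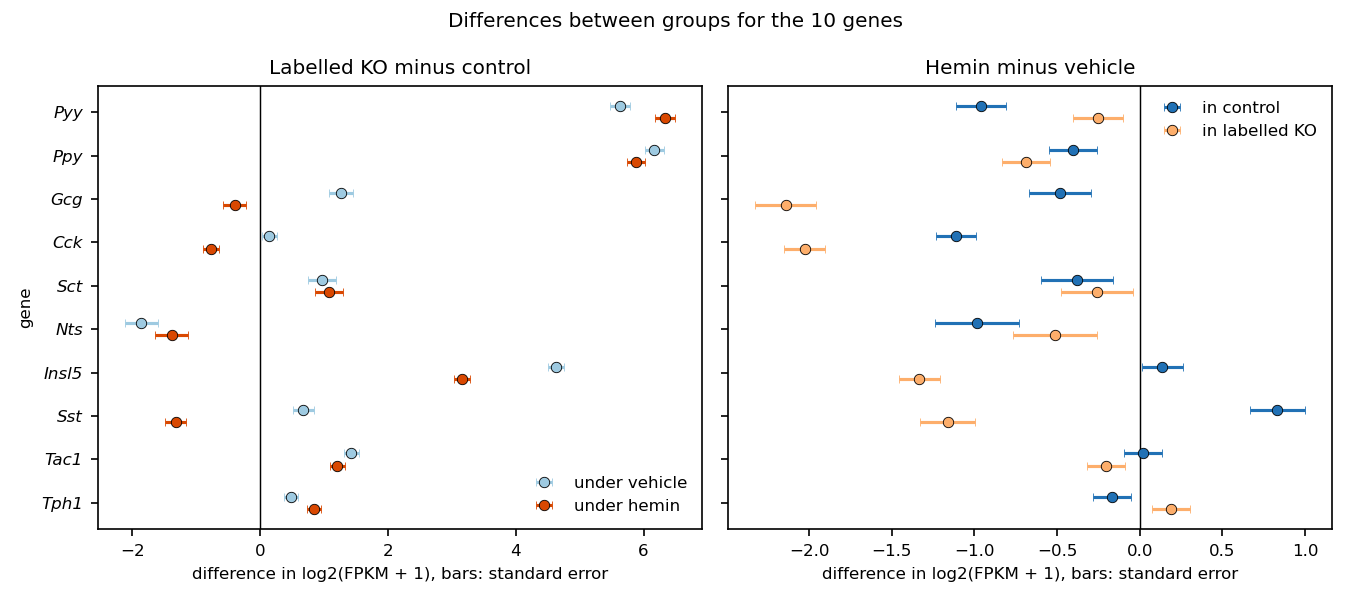
Difference in log2(FPKM + 1) between groups for each of the 10 genes, with standard errors, for labelled KO minus control (left, with vehicle and with hemin) and hemin minus vehicle (right, in control and in labelled KO). *Pyy* and *Ppy* lie above 5 in the left panel and *Insl5* above 3, and *Sst* lies on opposite sides of 0 in the right panel.

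For hemin against vehicle, *Cck* alone of the members was called in controls, as lower by 1.11 on the log2 scale, where 8.11% of all genes were called, 2.17% higher and 5.93% lower. With the label KO, *Gcg* (-2.14 ± 0.19), *Cck* (-2.03 ± 0.12), *Insl5* (-1.33 ± 0.12) and *Sst* (-1.16 ± 0.16) were called lower and none higher, against 12.9% of all genes called, 4.87% higher and 8.07% lower. Vehicle and hemin did not overlap for 4 members in controls and 8 in the colonoids labelled KO, against 52.4% and 74.4% of all genes, so the second share was near the background. The difference of the responses in log2(FPKM + 1), labelled KO minus control, was lowest for *Sst* (-1.99 ± 0.23), *Gcg* (-1.66 ± 0.26) and *Insl5* (-1.47 ± 0.18). The threshold for all genes calls 5.13% of them for this difference, 2.57% in the positive and 2.56% in the negative direction, and nothing is read from its call of these 3 members, which were chosen on the same values. The order depends on the scale, since *Nts* was at 0.47 on this scale and at -2.42 with limma-voom on fragments. *Pyy* did not follow *Insl5*, its partner in L cells. Its level with hemin was 2.19-fold lower in controls (1.67 to 2.91) and 1.21-fold lower in the colonoids labelled KO (1.18 to 1.24).

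The makeup of the hormone transcripts therefore differed between genotypes. The summed FPKM of the 10 genes was between 26.1 and 27.4 in control vehicle libraries, between 15.2 and 18.9 in control hemin libraries, between 599.8 and 621 in vehicle libraries labelled KO and between 384 and 491 in hemin libraries labelled KO. *Pyy*, *Ppy* and *Insl5* together made up 34.0% to 42.0% of this sum in control vehicle libraries and 27.2% to 40.6% in control hemin libraries. In the libraries labelled KO they made up 95.03% to 95.5% with vehicle and 97.8% to 98.2% with hemin. In control vehicle colonoids *Pyy* (27.1% ± 2.8, SD, n = 3), *Gcg* (22.9% ± 5.7), *Nts* (16.1% ± 1.9) and *Cck* (14.1% ± 1.5) had the largest shares. With hemin the share of *Sst* in controls was 14.8% ± 2.3, against 3.54% ± 0.88 with vehicle.

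**Figure D3:**
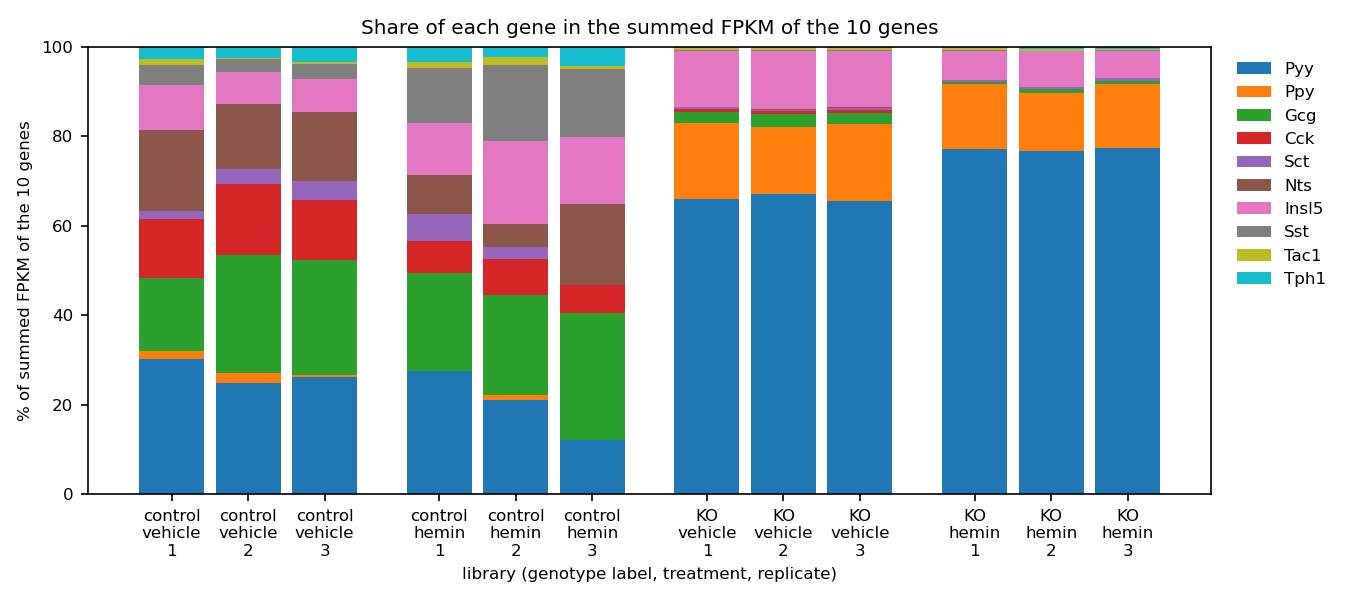
Share of each gene in the summed FPKM of the 10 genes, 1 bar per library. *Pyy*, *Ppy* and *Insl5* fill at least 95.03% of each bar of the colonoids labelled KO, and at most 42.0% of each control bar.

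The order of levels within a group, per length, ran *Pyy*, *Gcg*, *Nts*, *Cck*, *Insl5*, *Sst*, *Sct*, *Tph1*, *Ppy* and *Tac1* in control vehicle colonoids. Each of the first 3 overlapped with the next, as did *Sst* with *Sct*, *Sct* with *Tph1* and *Ppy* with *Tac1*. In vehicle colonoids labelled KO the order was *Pyy*, *Ppy*, *Insl5*, *Gcg*, *Cck*, *Sct*, *Tac1*, *Sst*, *Tph1* and *Nts*, and neighbours overlapped only from *Sct* to *Sst*. With hemin, *Pyy*, *Ppy*, *Insl5* and *Gcg* kept the first 4 places in the colonoids labelled KO and *Nts* the last. In control hemin colonoids *Gcg* led, and each of the first 5 genes overlapped with the next.

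As ratios to *Chga*, which encodes chromogranin A, a granule protein of most enteroendocrine cells, *Pyy* was at 1.007 ± 0.271 (SD, n = 3) in control vehicle colonoids and 10.97 ± 0.08 in vehicle colonoids labelled KO. The ratio of *Insl5* to *Chga* was 0.306 ± 0.111 and 2.10 ± 0.03 in the same groups. *Gcg* (0.824 ± 0.140 and 0.428 ± 0.033), *Cck* (0.519 ± 0.097 and 0.115 ± 0.003) and *Tph1* (0.102 ± 0.013 and 0.0393 ± 0.0027) were lower per *Chga* in the vehicle colonoids labelled KO. So were *Nts* (0.600 ± 0.170 and 0.0125 ± 0.0040), *Sst* (0.133 ± 0.054 and 0.0569 ± 0.0018) and *Sct* (0.111 ± 0.028 and 0.0697 ± 0.0093), whereas *Ppy* and *Tac1* had higher means. With hemin the ratio of *Tph1* overlapped between genotypes (0.0533 to 0.158 in controls and 0.0576 to 0.0750 in the colonoids labelled KO). In bulk RNA, fewer cells of a type and less RNA of a gene per cell cannot be told apart.

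Transcripts of chromogranins and of several other granule proteins were higher in the colonoids labelled KO. Of 20 genes for granule content and prohormone processing, 11 reached the filter, and 10 of these rose in the colonoids labelled KO with vehicle and 5 with hemin, where the background was 3.53% and 3.1% of all genes. Of the 11, 5 reached 1 FPKM only in libraries labelled KO and entered the test through them alone, so this count is a description. Without the filter on low values, 19 of the 20 genes had a value. Of these, 10 were called higher with vehicle and 5 with hemin, where 1.53% and 1.34% of all 29296 genes then tested were. Their median difference was 1.04 with vehicle and 0.36 with hemin, against 0 over all genes. Genes with low values have differences near 0 on this scale, so nothing is read from that background. *Chgb*, which encodes chromogranin B, was at 90.5 FPKM against 17.5 with vehicle (log2 difference 2.32, adjusted p = 6.12e-07, limma with Benjamini-Hochberg adjustment) and at 65.0 against 14.6 with hemin (2.11, adjusted p = 1.50e-06). *Chga* was at 36.7 against 7.37 (2.19, adjusted p = 1.13e-06) and at 28.4 against 6.76 (1.94, adjusted p = 3.43e-06). *Scg2*, the secretogranin II gene, and *Pcsk1n*, which encodes an inhibitor of prohormone convertase 1, differed by 1.68 and 1.46 with vehicle. *Pcsk1* itself, which encodes the convertase that cuts proglucagon in L cells, stayed under 0.573 FPKM in each library and was not tested. The carboxypeptidase gene *Cpe* rose in the colonoids labelled KO in both conditions (1.38 and 1.22), and it rose with hemin in controls (1.12, adjusted p = 7.11e-07), as did *Pam*, the gene of the enzyme that amidates peptides (1.05, adjusted p = 1.25e-07). Both were also higher with hemin in the colonoids labelled KO, by less than the threshold of 1 (*Cpe* 0.96, adjusted p = 1.16e-06, and *Pam* 0.71, adjusted p = 1.04e-06). The adjusted p of the difference between the responses was 0.321 for *Cpe* and 0.00852 for *Pam*. In controls *Pam* was below the threshold of 1 after conversion to TPM (0.91).

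*Neurog3* and *Insm1*, early transcription factors of the lineage, were lower with hemin in the colonoids labelled KO. Of 12 such genes 7 were tested, and all 7 fell with hemin in these colonoids, where 8.07% of all genes did. Of the 7, 5 reached 1 FPKM only in vehicle libraries, and 4 of these only in those labelled KO, *Nkx2-2*, *Fev* and *Rfx6* among them, so nothing is read from this count. In controls limma called 0 of the 7, although 4 had an unadjusted p and 3 an adjusted p under 0.05, and limma-voom on fragments called 3. Without the filter all 12 genes had a value, and their median difference with hemin was -1.08 in the colonoids labelled KO and -0.03 in controls, against 0 over all genes in both. Genes with low values have differences near 0 on this scale, so nothing is read from that background. *Neurog3*, which commits progenitors to the endocrine fate, was at 2.65 FPKM in control vehicle, 4.18 in control hemin, 20.6 in labelled KO vehicle and 0.640 in labelled KO hemin colonoids. It fell by 3.73 on the log2 scale with hemin in the colonoids labelled KO (adjusted p = 6.35e-10), and the difference from the response of controls was -4.24 (adjusted p = 3.89e-08). *Insm1*, a zinc-finger repressor that acts downstream of *Neurog3*, fell by 2.44 (adjusted p = 4.74e-07). The differences of *Nkx2-2*, a homeobox factor, and *Fev*, a factor of serotonin cells, were -1.504 and -1.45. With vehicle, the mean of each of the 7 was above that of controls with the label KO, and 5 passed the threshold, where 3.53% of all genes were called higher, including *Neurog3* (2.57, adjusted p = 1.50e-08), *Insm1* (2.46), *Nkx2-2* (1.65) and *Rfx6* (1.17). As 4 of the 7 entered the test only through vehicle libraries labelled KO, nothing is read from this count either. With hemin *Neurog3* was lower in the colonoids labelled KO than in controls (-1.67, adjusted p = 4.97e-07). *Chga* and *Chgb* had lower means with hemin in the colonoids labelled KO, by less than the threshold of 1. *Chga* was at 28.4 against 36.7 FPKM (-0.36, adjusted p = 0.0659, limma with Benjamini-Hochberg adjustment) and *Chgb* at 65.0 against 90.5 (-0.47, adjusted p = 0.0203).

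Of 12 genes for serotonin handling 9 were tested. *Ddc*, which encodes the decarboxylase that completes serotonin synthesis, rose in the colonoids labelled KO with vehicle (21.8 against 8.83 FPKM, log2 difference 1.22, adjusted p = 1.34e-06) and with hemin (39.6 against 9.64, 1.93, adjusted p = 3.58e-08). *Maob*, a monoamine oxidase gene, differed by 1.13 and 1.26, and it reached 1 FPKM only in libraries labelled KO, so no p is given. *Maoa*, the oxidase gene that is better known for serotonin breakdown, rose with hemin in the colonoids labelled KO (200.4 against 90.1 FPKM, 1.14, adjusted p = 1.71e-07), and so did *Gch1* (1.28, adjusted p = 4.26e-07), which encodes the first enzyme in the synthesis of the tetrahydrobiopterin that *Tph1* needs. The *Maoa* difference was 0.81 after conversion to TPM, and *Maoa* was also at 201.5 against 109.2 FPKM in controls with hemin (0.88, adjusted p = 2.29e-06, below the threshold of 1). The difference between these responses had an adjusted p of 0.0716. *Ddc* and *Maoa* act on other substrates and in other epithelial cells as well. The serotonin transporter gene *Slc6a4* and the vesicular transporter gene *Slc18a2* did not reach the filter. *Slc18a1*, the other vesicular monoamine transporter gene, was at 2.68 FPKM with hemin against 1.30 with vehicle in controls (0.67, adjusted p = 8.28e-05) and at 3.27 against 1.28 in the colonoids labelled KO (0.90, adjusted p = 5.31e-06), both below the threshold of 1.

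**Figure D4:**
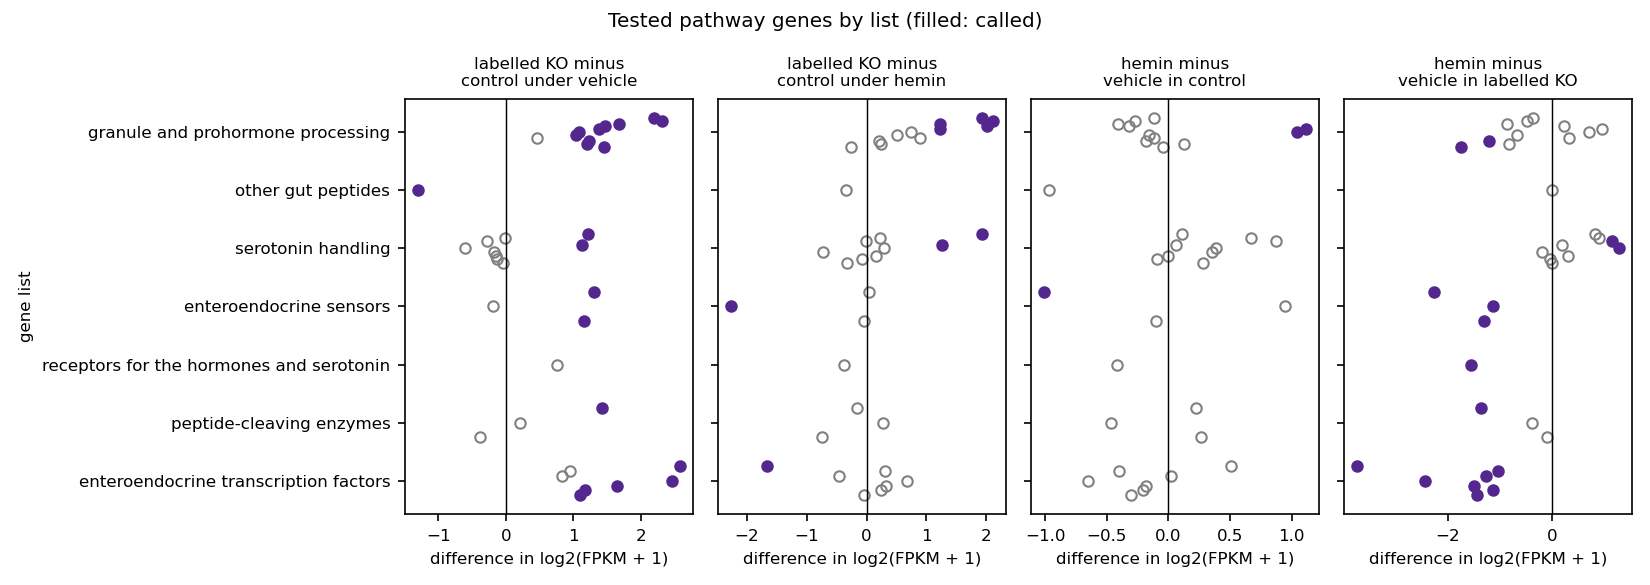
Difference in log2(FPKM + 1) for the 35 tested genes of 7 pathway lists, 1 point per gene, in 4 comparisons. Filled points passed the threshold and open points did not, and all 7 transcription factors lie left of 0 for hemin in the colonoids labelled KO.

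Of 13 genes for nutrient and metabolite sensors of enteroendocrine cells 3 were tested, and all 3 fell with hemin in the colonoids labelled KO, where 8.07% of all genes were called lower. As 2 of the 3 reached 1 FPKM only in vehicle libraries, nothing is read from this count. Without the filter, 3 of the 13 were called lower, where 3.53% of all genes were, and their median difference was -0.25. *Ffar2*, a receptor for short-chain fatty acids, went from 4.64 to 0.168 FPKM (-2.27) and differed by -1.01 in controls. It reached 1 FPKM only in vehicle libraries, so no p is given. The value in controls was -0.997, -0.903 and -0.982, short of the threshold, without control vehicle replicate 2, control vehicle replicate 3 and control hemin replicate 2. *Olfr78*, which reached 1 FPKM only in vehicle libraries labelled KO, fell by 1.31 and *Ffar4*, a receptor for long-chain fatty acids that colonocytes also express, by 1.14. *Ffar4* was lower in the colonoids labelled KO with hemin (6.45 against 34.8 FPKM, -2.27, adjusted p = 1.04e-08). Among 25 receptor genes for these hormones and serotonin the filter passed only *Htr4*, which fell with hemin in the colonoids labelled KO (-1.56, adjusted p = 7.51e-07). Of 7 peptide-cleaving enzymes 3 were tested, and *Ace* fell with hemin in the colonoids labelled KO (-1.37, adjusted p = 8.25e-07) and was higher in them than in controls with vehicle (1.42, adjusted p = 1.16e-06). Of 16 other gut peptide genes only *Calcb* was tested. It was at 1.82 FPKM in control vehicle and 0.144 in labelled KO vehicle colonoids, and it reached 1 FPKM only in the control vehicle libraries, so no p is given.

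Over all 7 lists, 35 of 105 genes were tested. Between genotypes, 20 were above and 1 below controls in the colonoids labelled KO with vehicle, and 7 were above and 2 below with hemin. Between treatments, 2 rose and 14 fell in the colonoids labelled KO, and 2 rose and 1 fell in controls, or 1 and 3 after conversion to TPM. Without vehicle replicate 1, 2 or 3 labelled KO, 7, 7 and 6 genes fell in place of 14. Of the 35 genes, 11 reached the filter only through libraries labelled KO, 7 of them through the vehicle libraries alone, and 1 only through controls. The counts are therefore not set against the background as evidence for a list.

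Markers of other cell types moved with the groups and are given beside these results. The summed FPKM of 6 enteroendocrine markers, all of them also in the lists above, was between 28.3 and 38.4 in the 6 control libraries and between 118 and 150.4 in those labelled KO. Goblet cell markers (6 genes) summed to 1370.1 to 1586 FPKM in control vehicle, 856 to 1177 in control hemin, 1722 to 1798 in labelled KO vehicle and 290.2 to 336 in labelled KO hemin libraries. The higher sum in labelled KO than in control vehicle libraries came mostly from *Agr2* (434 against 196 FPKM) and *Tff3* (1047 against 954), whereas *Muc2* (72.5 against 103.6) and *Fcgbp* (90.8 against 148) had lower means. Stem cell markers (5 genes) summed to 11.5 to 13.2, 4.81 to 6.74, 26.7 to 28.8 and 9.19 to 11.9 FPKM in the same order. Colonocyte markers (6 genes) summed to 2742 to 2989, 4835 to 7273, 1998 to 2049 and 3379.8 to 4227 FPKM. *Car1* made up most of this sum, and other genes of the list went either way between genotypes. *Guca2a* was at 84.3 FPKM in the colonoids labelled KO against 499 in controls with vehicle and at 21.1 against 547 with hemin, and *Krt20* at 106 against 173 and at 286 against 296. *Slc26a3* was at 37.8 against 14.6 and at 22.4 against 30.0. *Aqp8* was at 426 FPKM in the colonoids labelled KO against 44.0 in controls with vehicle and at 614 against 10.3 with hemin, and *Car4* was at 58.0 against 1.87 and at 4.60 against 0.788. The part of these cell types in the hormone results was not tested.

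Posterior *Hox* genes, which are switched on in order along the gut and mark its distal end, separated the genotypes. The sum of 6 such genes was between 7.76 and 14.1 FPKM in controls and between 195 and 209 in the colonoids labelled KO. *Hoxb13* held 0 fragments in all 6 control libraries, which allows up to 0.119 FPKM, and was between 104 and 134 FPKM in the 6 libraries labelled KO. *Hoxd11*, *Hoxd12* and *Hoxd13* were likewise at 0 fragments in each control library. The labels give no segment of the colon for any library, so genotype and position along the colon cannot be told apart. This holds for *Pyy*, *Ppy*, *Insl5* and *Nts* and for every other difference between genotypes, or of their responses, given here. Genes known from the small intestine (8 genes) summed to 8.56 to 31.9 FPKM in controls and 5.93 to 17.8 in the colonoids labelled KO. *Alpi*, an alkaline phosphatase gene, made up most of this sum with vehicle (28.6 FPKM in controls and 11.97 in the colonoids labelled KO), and the other genes of the list did not share a direction. With vehicle, *Apoa1* was at 2.15 FPKM in the colonoids labelled KO against 0.0485 in controls and *Lyz1* at 2.75 against 0.563, whereas *Gata4* was at 0.0608 against 0.674 and *Sis* at 0.0850 against 0.553.

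**Figure D5:**
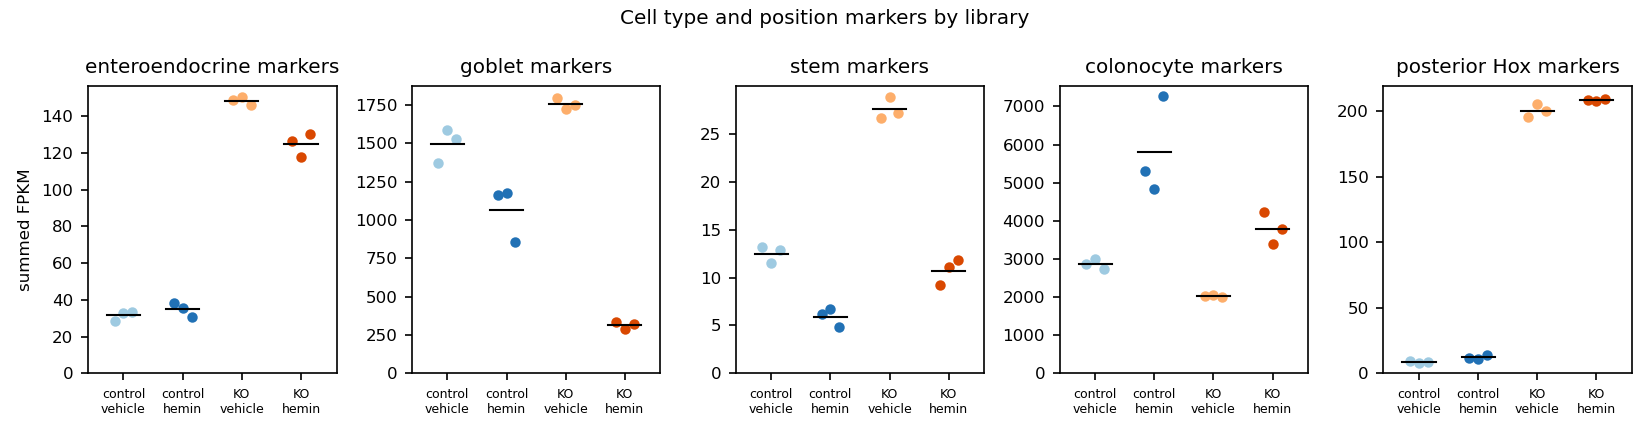
Summed FPKM of 5 marker lists, 1 point per library with a line at the mean of 3 libraries. Posterior *Hox* markers lie at or below 14.1 in the 6 control libraries and at or above 195 in the 6 labelled KO, and goblet markers are lowest in the hemin libraries labelled KO.

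Markers of other sources of these peptides were low, as were several members. The pancreatic islet is another source of *Ppy*, *Gcg* and *Sst*. Of 4 islet markers, *Ins1* and *Ins2*, which mark beta cells rather than the islet cells that make these peptides, held 0 fragments in all 12 libraries. *Pdx1*, which the gut epithelium can also express, was at 0.241 FPKM in control vehicle, 0.106 in control hemin, 1.14 in labelled KO vehicle and 0.750 in labelled KO hemin colonoids, and *Iapp* held at most 3 fragments in any library. The 5 neuronal markers summed to at most 2.01 FPKM, and one of them, *Uchl1*, was at 1.19 FPKM in the colonoids labelled KO against 0 in controls with vehicle and at 1.28 against 0.107 with hemin. It reached 1 FPKM only in libraries labelled KO, so no p is given. These levels are of the same order as those of *Tac1*, *Tph1* and *Sct*, and the part of neurons in them was not tested. Of 5 mast cell markers, *Cpa3* and *Fcer1a* were at 0 fragments in each library, and the sum of up to 3.73 FPKM in vehicle libraries labelled KO came mostly from *Kit* (3.24 ± 0.32 FPKM, SD, n = 3). Markers of leukocytes and of stroma and endothelium summed to at most 0.271 FPKM.

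The genes whose log2(FPKM + 1) followed each member most closely over the 12 libraries are given with Pearson's r as a measure of likeness. The libraries fall into 4 groups, so r ranks genes mainly by their group means. *Pyy* was closest to *Hoxa11os* (0.997), *Tyro3* and *Rdx*, and *Ppy* to *Hoxa11os* (0.998), *Mptx1* and *Aldh1l1*. *Insl5* was closest to *Oit1* (0.998), *Vsig1* and *Gm27605*, and *Tac1* to *Ctse* (0.988), *Mptx1* and *Adgrl2*. *Cck* was closest to *Ano7* (0.989), *Clca1* and *Eef1b2*, *Gcg* to *Thumpd1* (0.973), *Ap4m1* and *Homer2*, and *Nts* to *Flrt3* (0.992), *Glce* and *Clca4b*. *Tph1* was closest to *Megf9* (0.979), *Agtrap* and *Rasef*, *Sct* to *Gm3054* (0.960), *4930524J08Rik* and *Wdr55*, and *Sst*, the member with the weakest match, to *Kiz* (0.924), *Mbtps1* and *AC149090.1*. No other member was among the 3 closest genes of any member.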

How the data were processed

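The members and gene lists were chosen with earlier results of these data known. Reads were trimmed with fastp, aligned to mm10 with HISAT2 2.0.5 and counted with featureCounts 1.5.0-p3, according to the submitters' processing notes. The order of these steps, and whether counting used strand, is not given in the sources used here. The authors deposited 1 table of FPKM for 54532 genes and 12 libraries, with the coordinates and length of each gene. All deposited FPKM were whole multiples (within 0.01) of the value of 1 fragment, which gave fragments per gene and library. Median-of-ratios factors of the table were the same in each library, so the authors' FPKM had been scaled across libraries before deposit.

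Genes with at least 1 FPKM in at least 3 libraries (12740) were fitted with limma 3.58.1 in R 4.3.3 on log2(FPKM + 1), with 1 mean per group, an intensity trend and Benjamini-Hochberg adjustment over all of them. The code was tested on simulated data. Calls needed an adjusted p under 0.05 and an absolute difference above 1. Ratios of fragments carry exact 95% intervals, and 3 fragments or fewer in a library were taken as the floor. Beside all members, up to 4 called genes per list and comparison with the largest difference, *Hmox1*, the markers needed to describe a list, and the 3 tested genes closest to each member were named. *Slc6a4* and *Slc18a2*, which were not tested, and *Slc18a1*, which was called in no comparison, were named after their values were seen. Gene coordinates were set beside GENCODE M21, which gave the same coordinates for 98.26% of shared identifiers and for all 10 members, and promoters came from RefSeq on GRCm38.p6 for 10 of 10 members. Same-numbered libraries did not deviate together (mean correlation of -0.04, between -0.33 and 0.18), so replicate numbers were not used as pairs. Figures were drawn with matplotlib 3.10.9.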

Additional observations from a re-analysis of the deposited data

Results flagged for a closer look

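The difference between the responses to hemin was past the threshold in 12 of the 35 pathway genes tested, each with a lower response in the colonoids labelled KO (limma with Benjamini-Hochberg adjustment over all genes tested), where 5.13% of all genes were called. The difference of the responses in log2(FPKM + 1), labelled KO minus control, was -4.24 for *Neurog3*, -2.09 for *Ffar4*, -1.79 for *Insm1*, -1.70 for *Scgn*, -1.59 for *Ace*, -1.32 for *Nkx2-2*, -1.29 for *Pax4*, -1.26 for *Ffar2*, -1.21 for *Olfr78*, -1.14 for *Fev*, -1.13 for *Htr4* and -1.03 for *Cplx2*. *Scgn* encodes secretagogin, a calcium sensor of endocrine cells, and *Cplx2* encodes complexin 2, which acts in vesicle fusion. *Neurog3*, *Ffar4*, *Ace* and *Pax4* differed in sign between the genotypes, at 0.51, 0.95, 0.22 and 0.02 with hemin in controls and at -3.73, -1.14, -1.37 and -1.26 in the colonoids labelled KO, and of these *Neurog3* and *Ffar4* did not overlap between treatments in controls. *Scgn*, *Cplx2*, *Olfr78*, *Nkx2-2*, *Pax4* and *Fev* reached 1 FPKM only in vehicle libraries labelled KO and *Ffar2* only in vehicle libraries of either genotype, so the filter bears on 7 of the 12, and 6 genes were called without vehicle replicate 2 or 3 labelled KO. In control vehicle colonoids *Scgn*, *Cplx2* and *Olfr78* were at 0.383, 0.402 and 0.194 FPKM, which leaves little room to fall on log2(FPKM + 1). *Ffar2* ended near 0 with hemin in both genotypes (0.134 FPKM in controls and 0.168 in the colonoids labelled KO). For these genes a lower response cannot be told apart from the higher starting level in vehicle colonoids labelled KO.

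*Sst* was higher in each control hemin library than in each control vehicle library and lower in each hemin library labelled KO than in each vehicle library labelled KO. The difference of the responses was -1.99. The value is a description with no p-value, because *Sst* was listed with its levels known.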

How the results depend on the processing

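With the replicate block the 5 counts of called pathway genes were 3, 16, 21, 9 and 12, as without it, and the counts of members did not change. Leaving out each library in turn gave 2 to 4 called pathway genes for hemin in controls, 8 to 16 for hemin in the colonoids labelled KO, 15 to 21 and 9 for the genotypes with vehicle and with hemin, and 6 to 14 for the difference of the responses. The count for hemin in the colonoids labelled KO was 9, 9 and 8 without vehicle replicate 1, 2 and 3 labelled KO, and that of the difference of the responses was 6 without replicate 2 or 3, since 28 rather than 35 pathway genes then passed the filter. The members called were 1 to 3 for hemin in controls (3 without control vehicle replicate 2, 2 without control hemin replicate 1 or 3), 3 to 4 for hemin in the colonoids labelled KO, 6 to 7 for each genotype comparison and 3 to 4 for the difference of the responses. *Sst* was no longer called for hemin in the colonoids labelled KO without their hemin replicate 2, nor *Sct* for the genotypes with hemin without control hemin replicate 3. Of the difference of the responses, *Cplx2* was -0.998, -0.994 and -0.978 without control hemin replicate 1, control hemin replicate 2 and KO hemin replicate 1, and *Fev* was -0.966 without control hemin replicate 1, each short of the threshold. *Fev* was also not called with a pseudocount of 0.1 (-1.75 against -1.14) and *Ffar2* not with limma-voom (-1.79 against -1.26), although both differences were larger there. *Cplx2* (-0.977) and *Fev* (-0.959) were not called without the libraries high in *Gm23935*.

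With the adjusted p alone, pathway calls rose from 3 to 16 and from 16 to 25 for hemin in controls and in the colonoids labelled KO, from 9 to 21 for the genotypes with hemin and from 12 to 22 for the difference of the responses, and members from 1 to 5 and from 3 to 5 for hemin in controls and the difference of the responses, by construction. For hemin in controls, a pseudocount of 0.1 gave 6 pathway genes and 5 members, limma-voom on fragments 9 and 4, and TPM 3 members. For the genotypes with hemin, the pseudocount gave 14 pathway genes and voom 15. Chosen after seeing the data, TPM without *Gm23935* gave 4 members for hemin in controls, and leaving out the 3 libraries high in it gave 3. The cause was not tested. *Cck* was the member called for hemin in controls under all of these. After conversion to TPM the median difference of all genes was -0.19 and -0.31 for hemin in controls and in the colonoids labelled KO and 0.16 for the genotypes with vehicle. Before conversion these medians were -0.01, -0.002 and 0.02. TPM turned the calls for hemin from 277 higher and 756 lower to 264 and 1441 in controls and from 620 and 1028 to 403 and 2334 in the colonoids labelled KO. For *Tph1* the difference with hemin in the colonoids labelled KO, 0.19, was -0.03 after TPM. Depth limits *Ppy*, *Cck*, *Sct*, *Nts*, *Sst* and *Tac1*, with 5 fragments or fewer in some libraries.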
